A study of Homo sapiens with 9 samples.

Results

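The nuclear receptor TLX, encoded by NR2E1, acts mainly as a transcriptional repressor. The 10 genes described here encode proteins through which it is reported to repress, together with close relatives of these proteins. They were chosen by name, with earlier results of these data known. The list holds the atrophins ATN1 and RERE and the histone deacetylases HDAC1, HDAC2, HDAC3 and HDAC5. It also holds the histone demethylase KDM1A (LSD1), the CoREST scaffolds RCOR1 and RCOR2, and the zinc finger protein BCL11A. All 10 were found, each on a single row, among the 27548 rows of the expression table. The cells were MDA-MB-231, a triple-negative breast cancer line in long use, and 9 libraries of their RNA fell into 3 groups with 3 in each. CTL+siCTL (S1, S2 and S3) were control cells with a control siRNA. TLX+siCTL (S4, S5 and S6) were TLX-overexpressing cells with that same control siRNA, and TLX+siTLX (S7, S8 and S9) were the overexpressing cells with a TLX-targeting siRNA, so every group had been transfected, for 48 h. PC3, the name of a prostate line, stands unexplained in the titles of the control samples. No source used here says how TLX was overexpressed, whether the overexpressing cells are 1 clone or a pool, or whether replicates were separate cultures. If they were not, the p-values measure technical spread only.

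TLX is an orphan receptor best known from neural stem cells, where it keeps progenitors from differentiating by silencing target genes. It binds DNA and recruits adaptor proteins without enzyme activity, such as the atrophins and BCL11A, and enzymes that remove active histone marks. HDAC1 and HDAC2 take acetyl groups off histones, KDM1A takes methyl groups off histone H3, and RCOR1 or RCOR2 holds both kinds of enzyme together and ties them to nucleosomes.

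Values are log2 CPM as deposited, where CPM is the number of reads of a gene scaled to a fixed library total, and effective library sizes rebuilt from the steps between low values were 73.9 to 91.8 M reads. NR2E1 itself was at -4.46 ± 0.16 (SD, n = 3) in CTL+siCTL, -0.11 ± 0.63 in TLX+siCTL and -2.59 ± 0.82 in TLX+siTLX, so the siRNA group stayed above the control cells. The line's defining markers VIM, CD44, AXL and CAV1 all had a mean above 1, with a summed level of 2918 to 3018 CPM in CTL+siCTL, 3341 to 3403 CPM in TLX+siCTL and 4560 to 4839 CPM in TLX+siTLX. The members did not move together: mean VIM was 10.66 log2 CPM in control cells and 10.02 in TLX+siCTL, while AXL was 8.98 and 10.11. Of 9 epithelial and luminal markers 5 had a mean of at least 1, and the list's summed level was 502 to 535 CPM, 395 to 425 CPM and 502 to 518 CPM in the same order. Within it, mean SPDEF was 5.45 log2 CPM in control cells and 3.19 in TLX+siCTL, CDH1 2.03 and -1.003, and GATA3 2.37 and 3.30. Of 6 prostate markers 2 had such a mean, and the list's summed level was 39.3 to 41.7 CPM, 39.7 to 42.1 CPM and 41.9 to 44.4 CPM. Of 6 neural markers 3 (NES, GFAP and TUBB3) had such a mean, and the list summed to 28.01 to 29.05 CPM, 17.9 to 18.7 CPM and 27.1 to 34.9 CPM. ESR1 and KLK3 reached at most -1.78 and -3.59 log2 CPM. In bulk RNA, fewer cells of a kind and less RNA per cell cannot be told apart, and the part of these shifts in the results was not tested.

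Of the 10 genes 8 were well expressed, with 3659 (HDAC3) to 17720 (HDAC2) rebuilt reads in a library. RCOR2 and BCL11A had 11.4 to 60.5 rebuilt reads, and their values carry a correspondingly large counting error. Levels can be set side by side between genes only per length, here as log2 CPM per kilobase of the longest annotated transcript. In TLX+siCTL this level was 5.24 for HDAC1, 5.15 for KDM1A, 5.09 for ATN1, 4.90 for HDAC3, 4.25 for HDAC2, 3.83 for RCOR1, 3.67 for RERE and 3.66 for HDAC5. RERE and HDAC5, next to each other in that order, did not differ beyond their spread. RCOR2 and BCL11A stood far below, at -2.87 and -4.05 on this scale. With the mean transcript length instead, HDAC2, whose longest transcript of 9874 bases far exceeds its mean of 1559, moved from the fifth to the first place at 6.91, so the order among the 8 well-expressed genes depends on the length used. RCOR2 and BCL11A were the lowest of the 10 in every group under both lengths.

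**Figure D1:**
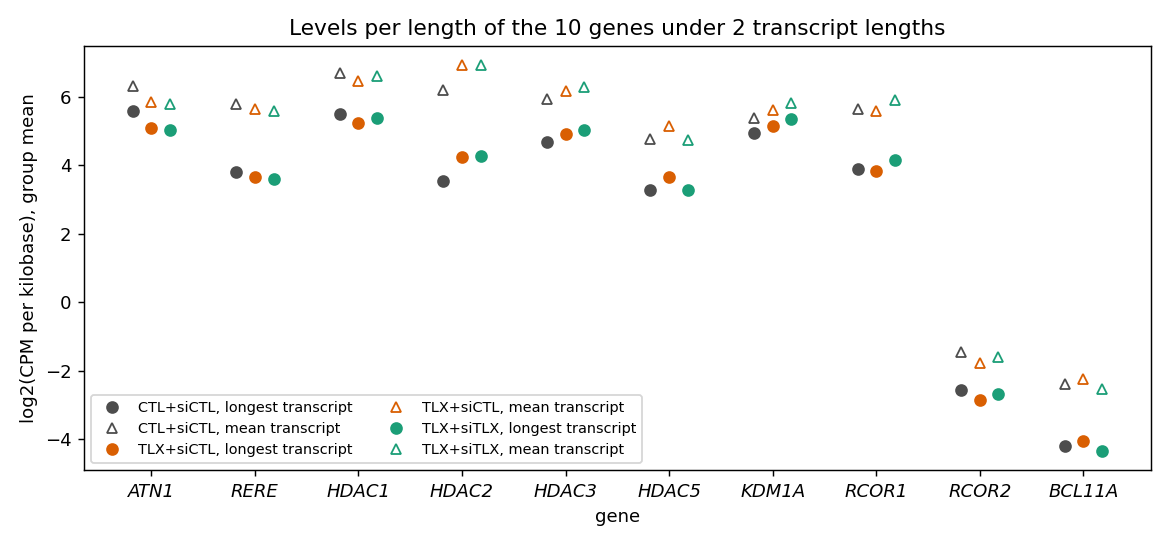
Group mean of each gene as log2 CPM per kilobase (vertical axis), with the longest annotated transcript (filled circles) or the mean of the annotated transcripts (open triangles) as the length; grey is CTL+siCTL, orange TLX+siCTL and green TLX+siTLX. RCOR2 and BCL11A lie below 0 under both lengths, and the other 8 genes lie above 3.

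Between TLX-overexpressing and control cells, the comparison that asks what accompanies TLX, the deacetylase genes moved in both directions. HDAC2, HDAC5, HDAC3 and KDM1A rose in TLX+siCTL, and ATN1 and HDAC1 fell. That is 4 genes up and 2 down of 10 by limma's moderated test at an adjusted p under 0.05. Over all rows 30.1% were called, 15.0% up and 15.1% down. All 6 called genes were among the 8 whose mean log2 CPM reached 1, and of all such rows 56.6% were called. The median size of the log2 fold change, whatever its sign, was 0.24 over the 10 genes and 0.27 over the rows with such a mean. The 3 libraries of one group lay wholly above or below those of the other for 7 of the 8 genes, as they did for 71.6% of those rows. Over the 3 groups together, 7 of the 10 genes differed by the moderated F test, against 40.7% of all rows and 75.1% of the rows with a mean of at least 1. These shares do not set the list apart from other expressed genes. All 6 calls between TLX+siCTL and CTL+siCTL held under each of the 20 alternatives, with 4 genes up and 2 down throughout.

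**Figure D2:**
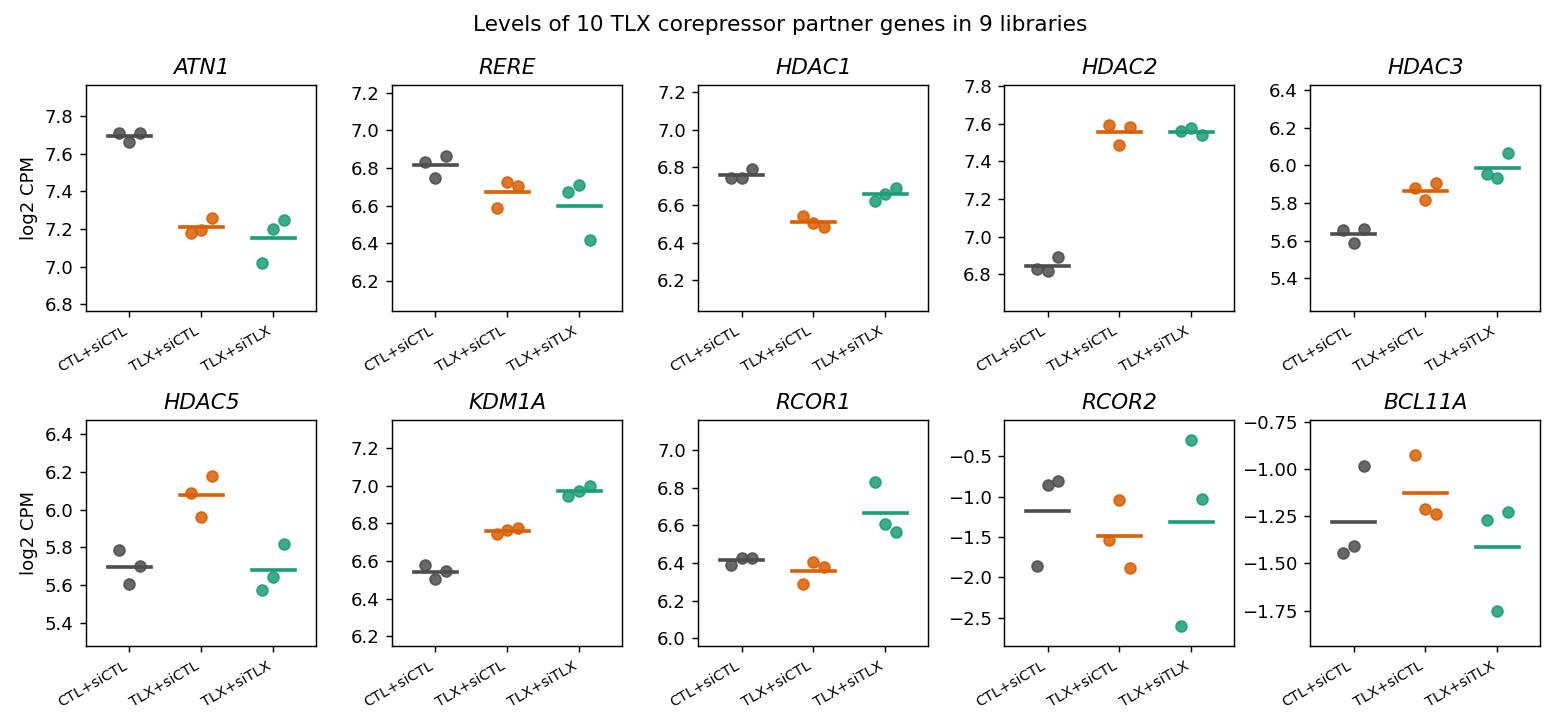
log2 CPM of each gene in each library (points) with the group mean (bars), for CTL+siCTL (grey), TLX+siCTL (orange) and TLX+siTLX (green); every panel spans 1.2 log2 units except RCOR2, which spans 2.8. HDAC2 and ATN1 separate the control cells from both TLX groups, HDAC5 is high in TLX+siCTL only, and KDM1A is higher in each successive group.

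HDAC2 had the largest change of the 10 genes (ENSG00000196591, GRCh38 chromosome 6, 113933028 to 114011308, minus strand). Its log2 CPM was 6.83, 6.82 and 6.89 in S1 to S3, 7.59, 7.49 and 7.58 in S4 to S6, and 7.56, 7.58 and 7.54 in S7 to S9. Every library of both TLX groups was above every control library, and the TLX groups overlapped each other. HDAC2 rose 1.63-fold with TLX overexpression (log2 fold change 0.71 ± 0.04, SE, adjusted p = 3.57e-06). After the siRNA the difference from TLX+siCTL was 0.00, with a 95% interval from -0.09 to 0.09, and the difference from control cells was 0.71 ± 0.04 (adjusted p = 1.84e-06). With library medians over all rows centred, the siRNA difference became -0.14 (adjusted p = 0.0464). HDAC2 shares 69 exon bases with the antisense gene HDAC2-AS2, which has no row in the table, and whether strand was used in counting is not stated.

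HDAC1 encodes the closest relative of HDAC2, and the proteins often sit in the same complexes (ENSG00000116478, chromosome 1, 32292086 to 32333635, plus strand). The libraries had log2 CPM values of 6.74, 6.74 and 6.79 in S1 to S3, 6.54, 6.50 and 6.49 in S4 to S6, and 6.62, 6.66 and 6.69 in S7 to S9. The 3 groups did not overlap, with the control cells highest and TLX+siCTL lowest. HDAC1 fell by 0.25 ± 0.03 in TLX+siCTL (adjusted p = 0.000488) and rose by 0.15 ± 0.03 after the siRNA (adjusted p = 0.0122). The remaining difference from control cells was -0.10 ± 0.03 (adjusted p = 0.045). That last call was lost without S1, S2, S3, S7 or S8 (adjusted p = 0.0533, 0.057, 0.0915, 0.0732 and 0.0709) and in 4 other settings (0.0512 to 0.172), and the authors' deposited table gives it a false discovery rate of 0.0868. The rise after the siRNA was lost without the intensity trend (adjusted p = 0.0788) and with library medians over all rows centred (0.01, adjusted p = 0.927). Rows of the pseudogenes HDAC1P1 and HDAC1P2 reached at most -4.33 and -4.07 log2 CPM.

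The balance between the HDAC1 and HDAC2 transcripts therefore shifted toward HDAC2 in TLX+siCTL. Within a library, HDAC1 minus HDAC2 on the log2 CPM scale was -0.08, -0.07 and -0.10 in S1 to S3, -1.05, -0.98 and -1.10 in S4 to S6, and -0.94, -0.92 and -0.85 in S7 to S9. The 3 groups did not overlap. The difference between TLX+siCTL and CTL+siCTL was -0.96, and that between TLX+siTLX and TLX+siCTL was 0.14. An exact two-sided permutation test gave p = 0.1 for each of these, the smallest that 3 against 3 libraries allow, and 0.171 adjusted over the 12 ratios and comparisons tested. HDAC1 minus HDAC3 also differed without overlap between TLX+siCTL and CTL+siCTL (-0.48, exact permutation p = 0.1, adjusted 0.171), and overlapped between the TLX groups (0.03, exact permutation p = 0.6, adjusted 0.8).

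**Figure D3:**
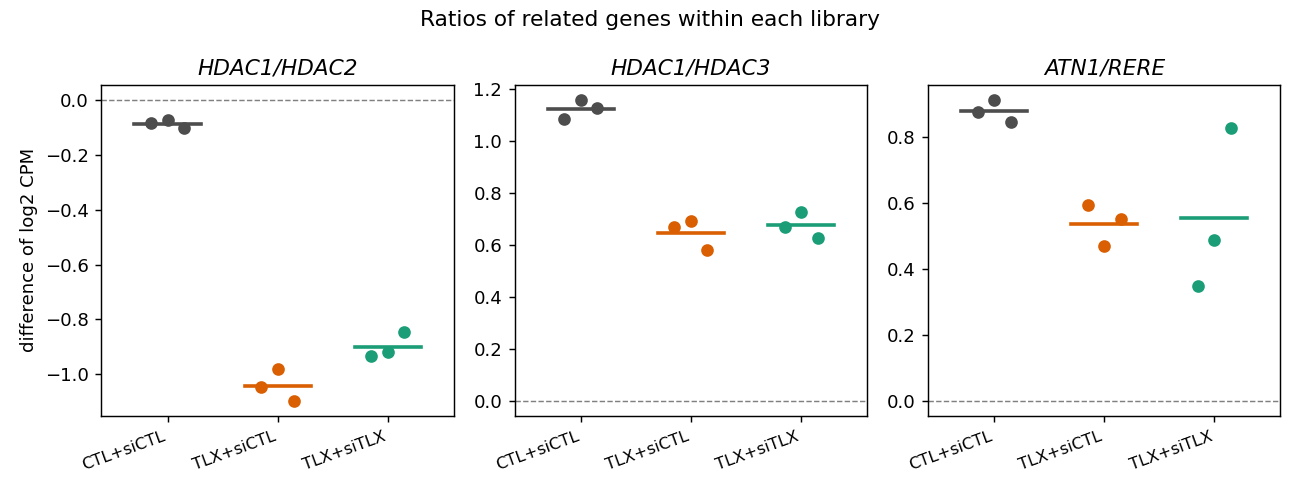
Difference in log2 CPM between 2 related genes within each library (points) and its group mean (bars), for CTL+siCTL (grey), TLX+siCTL (orange) and TLX+siTLX (green). HDAC1/HDAC2 is near -0.09 in the control cells and near -1.04 and -0.90 in the TLX groups; in ATN1/RERE, S9 at 0.83 lies apart from S7 and S8.

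The DNA just before the start sites of HDAC1 and HDAC2 is shown because these relatives changed in opposite directions. The sequences are from RefSeq (GRCh38.p14), written 5′ to 3′ on the gene's strand. For HDAC1 all 250 bases before the start are shown. For HDAC2 the first 113 are shown, up to the first base that GENCODE 29 places in an exon of any gene. The HDAC2 stretch lies within the GENCODE gene, whose annotation extends upstream of this RefSeq start. Capitals mark a CCAAT match (ATTGG on this strand), the only one of the searched motifs found in either window.
HDAC1, chr1:32291833-32292082, plus strand: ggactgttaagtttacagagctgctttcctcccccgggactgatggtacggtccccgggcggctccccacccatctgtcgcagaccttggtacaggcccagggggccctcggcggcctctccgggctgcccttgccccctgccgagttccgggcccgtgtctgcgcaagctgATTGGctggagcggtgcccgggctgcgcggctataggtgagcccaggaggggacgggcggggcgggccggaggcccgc
HDAC2, chr6:113971286-113971398, minus strand: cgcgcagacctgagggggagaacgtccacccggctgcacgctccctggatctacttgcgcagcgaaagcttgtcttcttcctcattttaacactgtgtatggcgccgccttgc

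The table of promoters held the 250 bases before a start for 6 of the 10 genes, with 1 window each for HDAC1, HDAC2, HDAC3, KDM1A and RCOR1 and 5 for BCL11A. ATN1, RERE, HDAC5 and RCOR2 had no entry. Both strands were searched for AAGTCA, the half-site TLX is known to bind, and its longer form AAGTCAA, for the E2F-type motifs TTGGCGC and TTCCCGC, for CCAAT, and for the ETS-type motif CGGAAG. The first of these is contained in the longer form, so their counts overlap. The half-site AAGTCA was in 0 of the 5 single-window genes and in 1 of the BCL11A windows, and in 10.9% of all 35116 windows, while AAGTCAA, held by 2.38% of all windows, was in none of the 6 genes. The E2F-type motifs, held by 2.56% and 5.52% of all windows, were in none of the 6 genes. CCAAT was in HDAC1, starting 78 bases before the start site, in RCOR1 and in BCL11A, and 32.0% of all windows hold it. CGGAAG, held by 16.5% of all windows, was in RCOR1 and in 1 of the BCL11A windows. The bases checked after the start of that BCL11A window were not found in the gene's annotated transcripts. With 5 windows, BCL11A had more chances of a match than a share per window allows for. These matches describe letters in a short window and say nothing about binding.

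HDAC5, a class IIa deacetylase that shuttles between nucleus and cytoplasm, was high in TLX+siCTL (ENSG00000108840, chromosome 17, 44076746 to 44123702). Measured log2 CPM was 5.78, 5.61 and 5.70 in S1 to S3, 6.09, 5.96 and 6.18 in S4 to S6, and 5.58, 5.64 and 5.82 in S7 to S9. Libraries S4 to S6 lay above all others, and the other 2 groups overlapped. HDAC5 rose 1.30-fold in TLX+siCTL (0.38 ± 0.08, adjusted p = 0.00596) and fell by 0.40 ± 0.08 after the siRNA (adjusted p = 0.00642). Between TLX+siTLX and control cells the difference was -0.02, with a 95% interval from -0.20 to 0.16. The rise and the fall passed the threshold under all 20 alternatives (adjusted p from 0.00102 to 0.0354 and from 0.000869 to 0.0377).

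HDAC3, the deacetylase of a corepressor complex used by nuclear receptors, was lowest in control cells (ENSG00000171720, chromosome 5, 141620876 to 141636870). Per library, log2 CPM was 5.66, 5.59 and 5.66 in S1 to S3, 5.88, 5.81 and 5.91 in S4 to S6, and 5.95, 5.93 and 6.07 in S7 to S9. No 2 groups overlapped. HDAC3 rose by 0.23 ± 0.05 in TLX+siCTL (adjusted p = 0.00523) and was 0.35 ± 0.05 above control cells after the siRNA (adjusted p = 0.000382). The siRNA step itself, 0.12 ± 0.05, did not pass (adjusted p = 0.116). HDAC3 shares 426 exon bases with an antisense gene, and whether strand was used in counting is not stated.

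KDM1A encodes the demethylase LSD1 of the CoREST complex (ENSG00000004487, chromosome 1, 23019443 to 23083689). Values in log2 CPM were 6.58, 6.50 and 6.55 in S1 to S3, 6.74, 6.76 and 6.78 in S4 to S6, and 6.94, 6.97 and 7.00 in S7 to S9. The 3 groups did not overlap, and the level was higher in each successive group. KDM1A rose by 0.22 ± 0.03 in TLX+siCTL (adjusted p = 0.000937) and by a further 0.21 ± 0.03 after the siRNA (adjusted p = 0.00187), which made it 1.34-fold higher than in control cells (adjusted p = 1.24e-05). The siRNA step was lost with library medians over all rows centred (0.07, adjusted p = 0.264). In the same comparisons 15 of 15 cell cycle markers rose, by a median of 1.30 in TLX+siCTL and a further 1.01 after the siRNA (14 of 15 in the latter with library medians over all rows centred). Over all rows 15.0% were called up in TLX+siCTL and 12.7% after the siRNA. Among rows with a mean of at least 1, 56.6% and 45.8% were called in either direction. The part of the cell cycle markers in the rises of HDAC2, HDAC3 and KDM1A was not tested.

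RCOR1, the scaffold that joins KDM1A to HDAC1 and HDAC2, was higher only after the siRNA (ENSG00000089902, chromosome 14, 102592661 to 102730576). Its log2 CPM was 6.39, 6.43 and 6.42 in S1 to S3, 6.29, 6.41 and 6.38 in S4 to S6, and 6.83, 6.61 and 6.56 in S7 to S9. The TLX+siTLX libraries were above all others, S7 most of all. TLX+siCTL and CTL+siCTL differed by -0.06, with a 95% interval from -0.21 to 0.10. RCOR1 rose by 0.31 ± 0.07 after the siRNA (adjusted p = 0.00998) and then stood 0.25 ± 0.07 above control cells (adjusted p = 0.0173). The first of these calls was lost without S4 (0.28, adjusted p = 0.0529), in a fit of the 2 groups alone (adjusted p = 0.064) and with library medians over all rows centred (0.17, adjusted p = 0.128). The call against control cells was lost without S1, S2 or S3 (adjusted p = 0.0737, 0.0551 and 0.0555) and in a fit of the 2 groups alone (adjusted p = 0.0656).

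RCOR2, a relative of RCOR1 known mainly from embryonic and neural cells, was barely detected (ENSG00000167771, chromosome 11, 63911221 to 63916844). The libraries had log2 CPM values of -1.86, -0.85 and -0.81 in S1 to S3, -1.53, -1.04 and -1.89 in S4 to S6, and -2.60, -0.30 and -1.03 in S7 to S9. The groups overlapped, and S7 and S8, of the same group, were the lowest and the highest of the 9 libraries. The difference between TLX+siCTL and CTL+siCTL was -0.31, with a 95% interval from -1.64 to 1.02 (adjusted p = 0.761), so changes of 2-fold in either direction lie inside it.

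Of the atrophins, which bind the ligand-binding domain of TLX directly, ATN1 fell and RERE did not pass the test. ATN1 (ENSG00000111676, chromosome 12, 6924463 to 6942321) was at 7.71, 7.66 and 7.71 log2 CPM in S1 to S3, 7.18, 7.20 and 7.26 in S4 to S6, and 7.02, 7.20 and 7.25 in S7 to S9. Both TLX groups lay wholly below the control cells and overlapped each other. ATN1 fell by 0.48 ± 0.06 in TLX+siCTL (adjusted p = 0.000232), to 0.716 of the control level. After the siRNA the difference from TLX+siCTL was -0.06, with a 95% interval from -0.19 to 0.07, and that from control cells was -0.54 ± 0.06 (adjusted p = 8.86e-05). With library medians over all rows centred the siRNA difference was -0.20 (adjusted p = 0.0274).

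RERE, the larger atrophin, with arginine and glutamic acid repeats, had a log2 CPM of 6.83, 6.75 and 6.86 in S1 to S3, 6.59, 6.73 and 6.71 in S4 to S6, and 6.67, 6.71 and 6.42 in S7 to S9 (ENSG00000142599, chromosome 1, 8352397 to 8817643). All 6 TLX libraries were below the 3 control libraries, and S9 was the lowest. The differences were -0.14 ± 0.08 in TLX+siCTL (adjusted p = 0.236), -0.07 ± 0.08 after the siRNA (adjusted p = 0.58) and -0.21 ± 0.08 between TLX+siTLX and control cells (adjusted p = 0.0636). The last of these came under the threshold in 6 of 20 alternatives, among them leaving out S8 (-0.27, adjusted p = 0.0497), with adjusted p from 0.0244 to 0.194. ATN1 minus RERE was 0.88 ± 0.03 in CTL+siCTL and 0.54 ± 0.06 in TLX+siCTL, without overlap (exact permutation p = 0.1, the smallest possible, adjusted 0.171).

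BCL11A, a zinc finger repressor known from fetal globin silencing and reported to bind TLX, was at the level of few reads (ENSG00000119866, chromosome 2, 60450520 to 60555154). Measured log2 CPM was -1.44, -1.41 and -0.98 in S1 to S3, -0.93, -1.21 and -1.24 in S4 to S6, and -1.27, -1.75 and -1.23 in S7 to S9. The 3 groups overlapped. The differences were 0.15 in TLX+siCTL (95% interval -0.44 to 0.75) and -0.29 after the siRNA (95% interval -0.88 to 0.31). The first interval includes a rise as large as that of HDAC2, and the second does not.

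**Figure D4:**
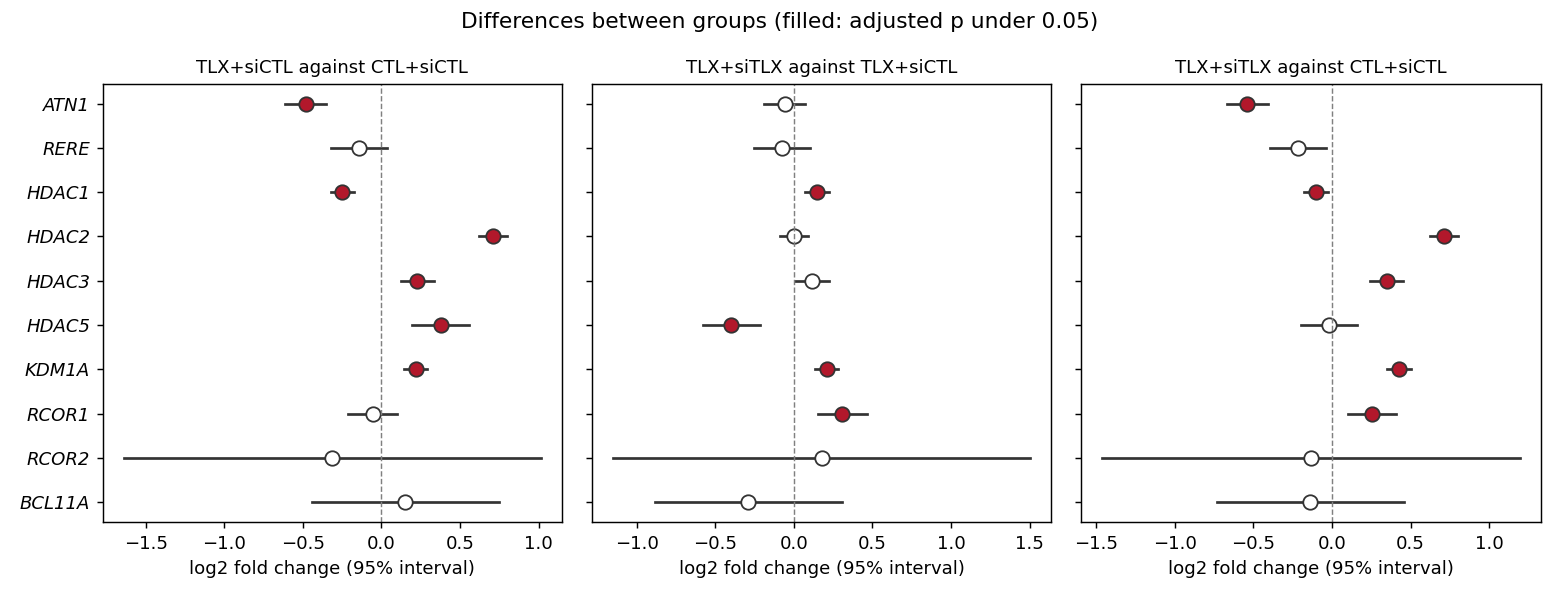
log2 fold change of each gene (points) with its moderated 95% interval (lines) in the 3 comparisons, filled where the adjusted p was under 0.05. RCOR2 and BCL11A have the widest intervals, and HDAC5 is filled on the right of 0 for TLX+siCTL against CTL+siCTL and on the left after the siRNA.

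Set against TLX+siCTL, the TLX+siTLX libraries address what accompanies the targeting of TLX by siRNA. There RCOR1, KDM1A and HDAC1 rose and HDAC5 fell, 3 up and 1 down of 10. Over all rows 23.7% were called, 12.7% up and 10.9% down. Of the 8 genes with a mean of at least 1, 4 were called, against 45.8% of such rows, and 5 did not overlap, against 58.3%. Centring library medians over all rows lowered every log2 fold change of this comparison by 0.14. On that scale 0 genes rose and 3 fell (HDAC5, ATN1 and HDAC2), so of the 4 calls HDAC5 alone stood under each scaling tried. Centring over the rows with a mean of at least 1, and quantile normalization, gave 3 up and 1 down as before.

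TLX+siTLX and CTL+siCTL differ in both the cells and the siRNA. In TLX+siTLX, set against CTL+siCTL, 4 of the 10 genes rose (HDAC2, KDM1A, HDAC3 and RCOR1) and 2 fell (ATN1 and HDAC1). Over all rows 34.6% were called, 17.7% up and 17.0% down. Of the rows with a mean of at least 1, 63.6% were called and 71.1% did not overlap, against 6 and 7 of the 8 genes. The 3 comparisons share groups, so they are not independent of each other. The authors' deposited table has the same sign as limma for all 10 genes in each comparison, and the same calls except for HDAC1 between TLX+siTLX and CTL+siCTL.

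HDAC2 and ATN1 had the widest spans of group means. The genes whose centred values over the 9 libraries lay closest to HDAC2, among 11292 rows searched, were RRS1, a ribosome assembly factor, SORD, sorbitol dehydrogenase, and KIAA1549, with root mean square differences of 0.037, 0.040 and 0.041 log2 units. Among the 3 closest to ATN1 were TBC1D10B and CAMTA2, at 0.049 and 0.050.

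Other subunits of the complexes that these proteins form also moved in both directions. The share of all rows called was 30.1% in TLX+siCTL and 23.7% after the siRNA. Most listed genes were well expressed, so the closer yardstick is the share among rows whose mean reached 1, 56.6% and 45.8%. Over all rows the median was 0 in both comparisons. Several balances of rises against falls depended on the scaling, so the split with library medians over all rows centred is given as the centred split. That centring put the median over all rows at 0.116 in TLX+siCTL and -0.141 after the siRNA. Centring over the rows whose mean reached 1 put the same median at 0.016 and -0.029, but was not run for any related list. Of 16 further genes of the CoREST and LSD1 complex, its paralogues and recruiters, 2 rose and 5 fell in TLX+siCTL (median -0.08), and the centred split was 4 up and 2 down (median 0.03). RCOR3, the remaining CoREST paralogue, fell by 0.61 ± 0.08 (adjusted p = 0.000386), and SNAI2, a repressor that recruits KDM1A, rose by 1.34 ± 0.04. After the siRNA 2 rose and 2 fell (median 0.00), with a centred split of 1 up and 4 down. There KDM1B, the KDM1A paralogue, fell by 0.48 ± 0.11 (adjusted p = 0.0107), a call lost without S4 or S8 (adjusted p up to 0.0586), and SNAI2 rose by a further 0.79 ± 0.04.

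Of 7 other zinc-dependent deacetylases 2 rose and 0 fell in TLX+siCTL (median -0.05, centred split 3 up and 0 down). HDAC9, a class IIa relative of HDAC5, rose by 1.14 ± 0.09 (adjusted p = 2.22e-05) and fell by 0.50 ± 0.09 after the siRNA (adjusted p = 0.00364). Its log2 CPM was 6.73, 6.70 and 6.59 in S1 to S3, 7.76, 7.83 and 7.85 in S4 to S6, and 7.45, 7.40 and 7.08 in S7 to S9, and no 2 groups overlapped. HDAC8, of the same class as HDAC1, rose by 0.50 ± 0.13 in TLX+siCTL (adjusted p = 0.0189), a call lost without S2, S3, S5 or S6 (adjusted p up to 0.0911). After the siRNA 2 of the 7 rose and 1 fell (median 0.13), with a centred split of 0 up and 2 down. HDAC6, a cytoplasmic deacetylase, rose there by 0.44 ± 0.11 (adjusted p = 0.0212), but the call was lost in 7 of 9 fits that left out a library (all but S4 and S8, adjusted p up to 0.0907) and with medians centred (adjusted p = 0.0894).

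Of 12 NuRD genes, the complex in which HDAC1 and HDAC2 meet chromatin remodellers, 5 rose and 4 fell in TLX+siCTL (median 0.07, centred split 5 up and 1 down). The remodeller CHD3 fell by 0.47 ± 0.05 and the methyl-DNA binder MBD2 rose by 0.41 ± 0.09. After the siRNA 3 rose and 1 fell (median 0.02), but the centred split was 0 up and 3 down (median -0.12). The histone chaperone RBBP4 fell by 0.21 ± 0.04, and MTA1 rose by 0.27 ± 0.06, a call lost without S4, S6 or S9 (adjusted p up to 0.0691) and with medians centred (adjusted p = 0.151).

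Of 13 SIN3 genes 4 rose and 5 fell in TLX+siCTL (median -0.06), with a centred split of 5 up and 2 down and 4 up and 3 down after quantile normalization. After the siRNA 3 rose and 6 fell (median -0.16, centred split 1 up and 8 down). BRMS1, a SIN3 subunit, rose by 0.41 ± 0.04 and fell by 0.38 ± 0.04, ARID4B fell by 0.66 ± 0.08 in TLX+siCTL, and ING2, which reads methylated histone H3, rose by 0.55 ± 0.07 after the siRNA.

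Of 7 genes of the corepressor complex built around HDAC3, 1 rose and 3 fell in TLX+siCTL (median -0.17, centred split 1 up and 2 down), and 3 rose and 3 fell after the siRNA (median 0.04, centred split 1 up and 3 down). ZBTB33, a methyl-DNA binding repressor, rose by 0.60 ± 0.05 and fell by 0.36 ± 0.05. Of 12 genes of BCL11 partners and of the BAF remodelling complex, 5 rose and 1 fell in TLX+siCTL (median 0.06, centred split 6 up and 0 down), and 4 rose and 0 fell after the siRNA (median 0.08, centred split 2 up and 0 down with a median of -0.06). PHF10 rose by 0.69 ± 0.04 and SMARCA2 by 0.50 ± 0.12 in TLX+siCTL, the latter call lost without S1, S4 or S6 (adjusted p up to 0.0648), and ARID1A rose by 0.48 ± 0.09 and SMARCA4 by 0.39 ± 0.03 after the siRNA.

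**Figure D5:**
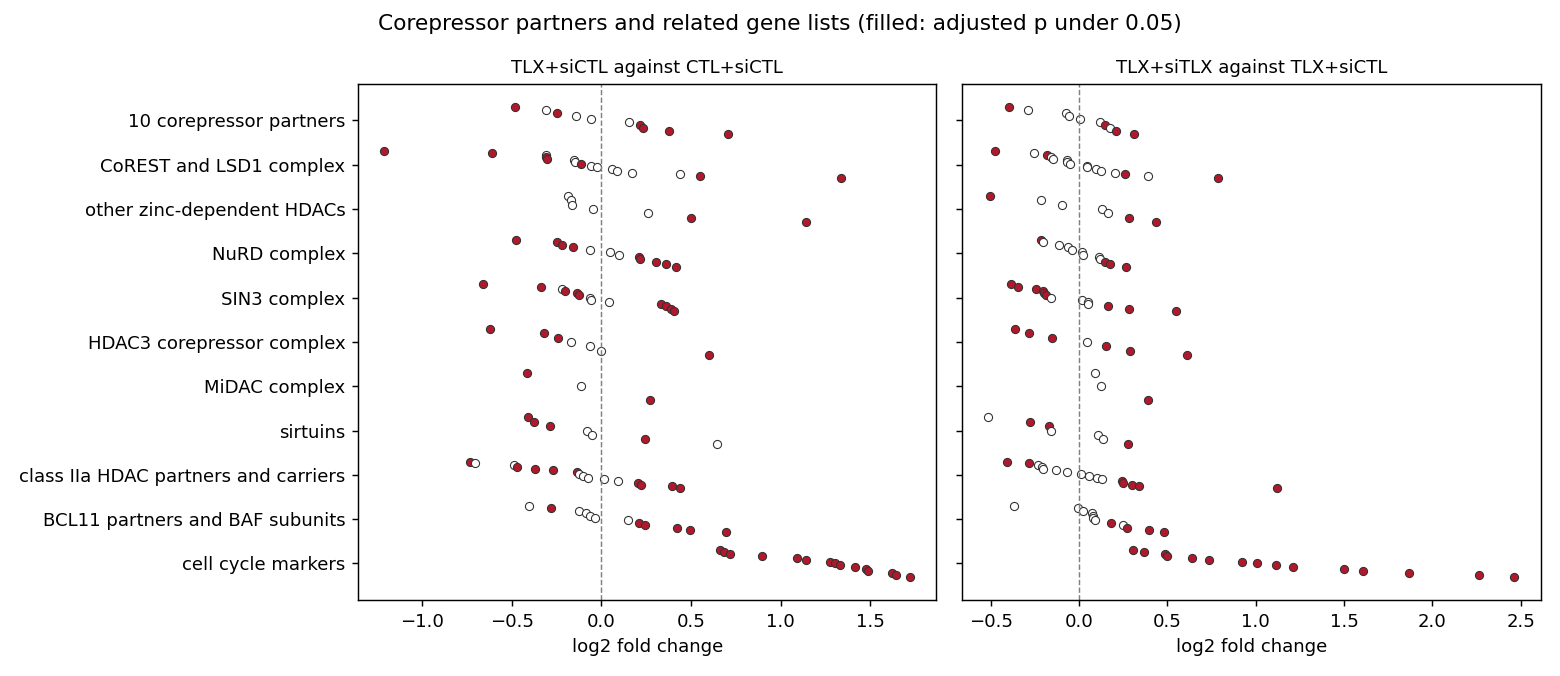
log2 fold change of every gene in the 10 partner genes and in each related list (rows), for TLX+siCTL against CTL+siCTL (left) and TLX+siTLX against TLX+siCTL (right), filled where the adjusted p was under 0.05; the vertical offset within a row only separates points. The corepressor lists spread to both sides of 0, except MiDAC, which lies wholly to the right of 0 in the right panel. All 15 cell cycle markers lie to the right in both panels.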

How the data were processed

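Log2 CPM values for 27548 rows and 9 libraries were used as deposited by the authors. kallisto 0.44.0, limma, edgeR and GRCh38 are named per the submitters' processing notes, without roles. Each column names its group and a number found in no label, and 0 columns were left unmapped. All libraries share a lowest value of -5.33, 0 reads with a prior count of 2.00, which pulls NR2E1, RCOR2 and BCL11A fold changes toward 0. Library sizes were rebuilt by taking the most frequent value above it as 1 read, and since only 21.45% to 23.04% of rebuilt values were within 0.01 of whole, no count test was run. Signed fold changes, p-values and false discovery rates were taken from the authors' deposited table, whose test is not stated.

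Differences were tested with limma 3.58.1 in R 4.3.3: 1 fit of all libraries, a mean per group, intensity trend, two-sided, Benjamini-Hochberg adjustment over all rows, threshold 0.05. SE and 95% intervals are the moderated ones. The fit was checked on simulated data. Transcript lengths and positions came from GENCODE 29. Named genes were the 10 members and, per related list and comparison, up to 2 called genes with the largest fold change and a mean log2 CPM of at least 1. For the 2 members with the widest span of group means, the 3 rows most alike were found. Values of a few genes that this rule names are not reported here. Members and lists were chosen with earlier results of these data known. Alternatives covered moderation, low values, pseudocount, scaling, rows per symbol, groups in the fit and leaving out each library.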

Additional observations from a re-analysis of the deposited data

How the results depend on the processing

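Of 30 results (10 genes in 3 comparisons), 8 changed their side of the threshold under at least 1 of the alternatives, which were 20 for each gene except RCOR2 and BCL11A, which the minimum of 1 on the mean log2 CPM leaves out. Of the 16 called, 11 held throughout. Over all 594 values 547 kept sign and call, and 20 changed sign with no call under either setting (in 9 results). A further 19 lost the call and 7 gained one. In 1 more, HDAC2 between TLX+siTLX and TLX+siCTL, the sign changed and a call was gained. Its log2 fold change was 0.00 without a call in the main fit, and -0.1375 with library medians over all rows centred. That centring moved all log2 fold changes by 0.116, -0.141 and -0.0252 in the 3 comparisons, and the share of rises among all calls from 49.9% to 64.9%, from 53.8% to 29.9% and from 51.0% to 47.9%. The cause was not tested. Without each library in turn, 6, 3 to 4 and 4 to 6 of the 10 genes were called. For the related lists, 12 of 30 counts of calls moved over 1.5 times under some of 11 settings. CoREST moved from 7 to 4, NuRD from 9 to 5, 9 to 5 and 4 to 2, and SIN3 from 9 to 5. The HDAC3 complex moved from 6 to 3, and other deacetylases from 2 to 1 and 3 to 1. BCL11 and BAF moved from 6 to 3 and 4 to 2, and MiDAC from 2 to 1 and 2 to 1. No paired analysis was possible because the table's columns carry no replicate number of the labels. RCOR2 and BCL11A had few reads and wide intervals, and the source of their spread was not tested.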

Other observations

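Further lists stand outside the complexes above, beside 30.1% of all rows called in TLX+siCTL and 23.7% after the siRNA. Among rows whose mean reached 1, as it did for most of these genes, the shares were 56.6% and 45.8%. Of 16 partners and carriers of class IIa deacetylases, the family of HDAC5 and HDAC9, 4 rose and 5 fell in TLX+siCTL (5 up and 3 down with library medians over all rows centred). After the siRNA 5 rose and 2 fell, but 2 rose and 7 fell with medians centred and 3 rose and 4 fell after quantile normalization. SFN, a 14-3-3 protein, fell by 0.74 ± 0.05 (adjusted p = 7.58e-06) in TLX+siCTL, as did ANKRA2 by 0.47 ± 0.10. MEF2A, a transcription factor bound by class IIa deacetylases, fell by 0.41 ± 0.09 after the siRNA (adjusted p = 0.00834). MEF2C rose by 1.12 ± 0.31 (adjusted p = 0.0301), a call lost without S1, S3, S4, S6, S7 or S8 (adjusted p up to 0.128).

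Of 7 sirtuins, the deacetylases that use NAD, 1 rose and 3 fell in TLX+siCTL (2 up and 1 down with medians centred). SIRT7 fell by 0.38 ± 0.04 and SIRT5 by 0.41 ± 0.12, the SIRT5 call being lost in 7 of 9 fits that left out a library (all but S7 and S9, adjusted p up to 0.135) and with medians centred (adjusted p = 0.0941). After the siRNA 1 rose and 2 fell (0 up and 2 down with medians centred). SIRT1 fell by 0.28 ± 0.05 (adjusted p = 0.00564) and SIRT3 rose by 0.28 ± 0.06 (adjusted p = 0.0113), the latter call lost with medians centred (adjusted p = 0.212) and after quantile normalization (adjusted p = 0.0558).

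Of the 3 genes found for MiDAC, a mitotic deacetylase complex of HDAC1 and HDAC2, MIDEAS fell by 0.41 ± 0.08 in TLX+siCTL. TRERF1 rose there by 0.27 ± 0.07 (adjusted p = 0.0212), a call lost without S1, S2, S4, S5 or S6 (adjusted p up to 0.0968), and rose by a further 0.39 ± 0.07 after the siRNA (adjusted p = 0.00462).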
